A study of Mus musculus with 18 samples.

Results

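Stranded unnamed loci of the mouse hypothalamus are places where a transcript assembly placed RNA on a definite strand of the genome but gave it no gene name. They were taken from the hypothalamus table of transcript models as every locus whose models all lacked a gene name and of which at least 1 model lay on the plus or the minus strand. This gave 1360 loci, built from 1806 models, among 28445 loci and 65611 models in the table. The other loci were 3323 unnamed loci with no strand and 23762 named loci, and the 3 tissue assemblies of the study hold 86006 loci together. The study sequenced poly-A RNA of hypothalamus, liver and gonadal fat from C57BL/6 males at 3 weeks of age. Dams had been gavaged daily with bisphenol A (BPA), an estrogenic chemical used to make plastics, at 5 mg/kg in corn oil from day 1 to day 20 after conception, or with corn oil alone. Each tissue had 3 BPA and 3 corn oil samples, and the study used 4 BPA litters and 3 corn oil litters. The headings of the 6 hypothalamus columns match no sample label, so the 6 libraries below mix both treatments in an order that is not known, and BPA was not compared with corn oil.

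Unnamed loci in such an assembly usually fall into a few kinds. Long noncoding RNAs are spliced or unspliced transcripts without a clear protein product, and many begin next to the start of a protein-coding gene and run the other way from a shared, bidirectional promoter, which in mammals is often rich in CpG dinucleotides. Processed pseudogenes are copies of messenger RNAs pasted back into the genome; they resemble their parent gene so closely that short reads of the parent can be placed on the copy. Unspliced fragments of a known gene can also be assembled as separate loci, and an assembler can give such a fragment a strand without a splice junction to settle it when the library does not record strand.

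Promoters shared with a protein-coding gene bear on where these loci start, so 5 are shown. Each is the RefSeq window on GRCm38.p6 from 250 bases before to 50 after the start of the protein-coding gene, on that gene's strand, and the capitals run from the first base of the unnamed locus to the first base of the gene, with the unnamed locus reading leftwards from the left end of the capitals. The windows lie at chr12:101975724-101976023 (plus strand) for Cpsf2, at chr11:57801387-57801686 (plus) for Sap30l, at chr7:116443409-116443708 (minus) for Pik3c2a, at chr15:96460794-96461093 (minus) for Scaf11, and at chr6:23248215-23248514 (minus) for Fezf1. The unnamed partners are XLOC_005754 (Ndufb1-ps in GENCODE), XLOC_004121 (2010001A14Rik), XLOC_022535 (AV356131), XLOC_008561 (no gene) and XLOC_020258 (C130093G08Rik).
Cpsf2: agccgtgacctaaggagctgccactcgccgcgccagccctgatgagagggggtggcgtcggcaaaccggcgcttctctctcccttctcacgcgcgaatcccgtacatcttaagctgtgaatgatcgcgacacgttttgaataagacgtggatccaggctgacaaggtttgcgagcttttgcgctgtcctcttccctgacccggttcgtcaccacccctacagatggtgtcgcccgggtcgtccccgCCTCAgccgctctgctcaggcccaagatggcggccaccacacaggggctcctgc
Sap30l: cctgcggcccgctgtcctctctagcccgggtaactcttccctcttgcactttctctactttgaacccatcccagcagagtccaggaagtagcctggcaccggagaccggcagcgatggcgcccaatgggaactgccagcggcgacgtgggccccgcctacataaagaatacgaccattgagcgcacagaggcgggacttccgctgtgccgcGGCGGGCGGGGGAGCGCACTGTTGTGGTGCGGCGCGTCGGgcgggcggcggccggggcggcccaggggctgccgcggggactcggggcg
Pik3c2a: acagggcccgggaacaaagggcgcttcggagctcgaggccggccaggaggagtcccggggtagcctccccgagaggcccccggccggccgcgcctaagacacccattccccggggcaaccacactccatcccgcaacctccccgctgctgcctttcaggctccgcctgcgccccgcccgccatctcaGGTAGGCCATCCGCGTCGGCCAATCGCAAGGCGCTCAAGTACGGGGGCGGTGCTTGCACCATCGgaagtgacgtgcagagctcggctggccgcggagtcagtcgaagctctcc
Scaf11: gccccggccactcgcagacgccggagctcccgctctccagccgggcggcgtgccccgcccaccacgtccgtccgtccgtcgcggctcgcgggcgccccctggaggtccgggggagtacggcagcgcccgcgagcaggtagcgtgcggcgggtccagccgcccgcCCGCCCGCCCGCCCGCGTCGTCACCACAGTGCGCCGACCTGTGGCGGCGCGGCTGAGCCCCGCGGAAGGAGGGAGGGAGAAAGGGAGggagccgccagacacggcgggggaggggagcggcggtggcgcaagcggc
Fezf1: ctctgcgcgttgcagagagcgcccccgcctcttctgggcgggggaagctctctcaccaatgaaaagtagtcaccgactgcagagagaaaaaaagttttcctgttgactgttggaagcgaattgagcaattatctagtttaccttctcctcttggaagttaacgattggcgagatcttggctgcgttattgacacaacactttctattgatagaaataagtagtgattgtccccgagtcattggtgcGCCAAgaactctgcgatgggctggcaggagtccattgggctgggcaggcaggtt
By the RefSeq start of the gene, the starts lay 4 bases apart at Cpsf2 and at Fezf1, 39 at Sap30l, 63 at Pik3c2a and 86 at Scaf11. By the GENCODE starts that define the 177 head-to-head loci below, they lay 18 bases apart at Cpsf2 and 72 at Pik3c2a. The 5 windows hold 26, 33, 31, 48 and 13 CpG dinucleotides in the order printed, against a median of 13 per window over 21262 protein-coding promoters.

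Hypothalamic markers were present in every library. Of 12 genes that mark this region, 11 were at or above 1 FPKM (fragments per transcript length in kilobases, scaled to the mapped total of the library) in all 6 libraries. The neuropeptide gene Pmch, for example, had a lowest, median and highest value of 284, 399 and 540 FPKM. Of 9 markers of cortex, striatum or thalamus, 8 were in the table and 3 reached 1 FPKM in all 6 libraries: Rora (4.48 to 18.9 FPKM), Tcf7l2 (3.43 to 28.8) and Prox1 (4.59 to 10.9), each highest in the library headed hypo25. The summed level of that list ran from 14.3 to 59.3 FPKM, and Tbr1 and Drd2 were listed at 0. Of 6 pituitary markers none reached 1 FPKM in all 6 libraries, and both adipose markers were listed at 0. The pituitary marker Cga, however, was at or above 1 FPKM in 5 libraries, with 0, 2.36 and 4.59 FPKM as its lowest, median and highest value. Of 3 erythroid markers, 2 reached 1 FPKM in all 6 libraries, Hba-a1 (72.5 to 302 FPKM) and Hbb-bs (47.5 to 144). The liver gene Alb had 22.4 to 60.3 FPKM. The library headed hypo03 had 646 FPKM of Ttr, a transcript abundant in choroid plexus, against 2.17 to 9.08 FPKM in the other 5, and Kcne2, also of choroid plexus, had 0.960 FPKM there and was listed at 0 in the others. Folr1 was listed at 0 in all 6, and Foxj1, of ciliated ependyma, had 0.192 FPKM in hypo03 and up to 5.96 elsewhere. A listed 0 need not mean absence in this table: Smc3, a cohesin subunit gene, Birc6 and Itpr1, genes used widely, were also listed at 0 in all 6 libraries. The part of these transcripts in the results was not tested, and in bulk tissue fewer cells of a type and less RNA per cell cannot be told apart. Per library, 292 to 341 members were listed at 0, and Spearman correlations between libraries over the 1360 loci ran from 0.55 to 0.64. The deposited FPKM carry no read numbers, so the depth is unknown.

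The members were short and mostly simple. Of the 1360 loci, 710 lay on the plus strand and 650 on the minus strand, and no locus mixed strands. Their median span was 2654 bp, against 475 bp for the unstranded unnamed loci and 15842 bp for named loci. A single model made up 83.7% of members, 99.9% of unstranded unnamed loci and 53.5% of named loci. Close to other loci, 167 members (12.3%) lay within 10 kb of another member on the same strand, and 56 (4.12%) shared bases with a named locus of the table on their own strand. On the opposite strand 162 members (11.9%) shared bases with a named locus.

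Set against GENCODE M21, an annotation of the same genome build, most members touched a gene that the deposited table did not name there. A sense exon, meaning an annotated exon on the member's own strand, was touched by 784 members (57.6%, 95% Wilson interval 55.0 to 60.2). Of these, 333 touched exons of long noncoding genes only, 205 of protein-coding genes only and 193 of pseudogenes only, while 53 touched several kinds or small RNA genes. Another 184 members (13.5%, 11.8 to 15.5) lay only antisense to a gene and 42 (3.09%, 2.29 to 4.15) only within sense introns. Of the 350 outside annotated genes, 68 (5.00%, 3.96 to 6.29) started within 1 kb of the start of an opposite-strand gene, 48 (3.53%, 2.67 to 4.65) started within 5 kb after a same-strand gene, and 234 (17.2%, 15.3 to 19.3) did neither. The sense exon class rests on contact by a single base: when 50% of the span had to be covered, 16.8% of members were left in it and 32.6% fell into sense introns.

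Levels of the members were low and their range was wide. The median over loci of the median FPKM of 6 libraries was 0.257 for members, 0.180 for unstranded unnamed loci and 0.693 for named loci. Library by library the median was 0.286 to 0.322 FPKM for members, 0.189 to 0.222 for unstranded unnamed loci and 0.655 to 0.767 for named loci, so the ranges over libraries did not overlap. At or above 0.1 FPKM in all 6 libraries were 535 members (39.3%, 36.8 to 42.0), 1075 unstranded unnamed loci (32.4%, 30.8 to 34.0) and 12287 named loci (51.7%, 51.1 to 52.3), with 48.9% of all loci of the table. At or above 1 FPKM in all 6 were 150 members (11.0%, 9.47 to 12.8), against 38.1% of all loci of the table. In every library 12 members (0.882%) were listed at 0, with 11 unstranded unnamed loci (0.331%) and 8375 named loci (35.2%). An unnamed locus is in the table because RNA was assembled there, so its low share at 0 follows from its definition. The comparisons of level and detection with named loci carry the same limit. Among members, 708 were above 0 in all 6 libraries and 129 in just 1 of them.

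**Figure D1:**
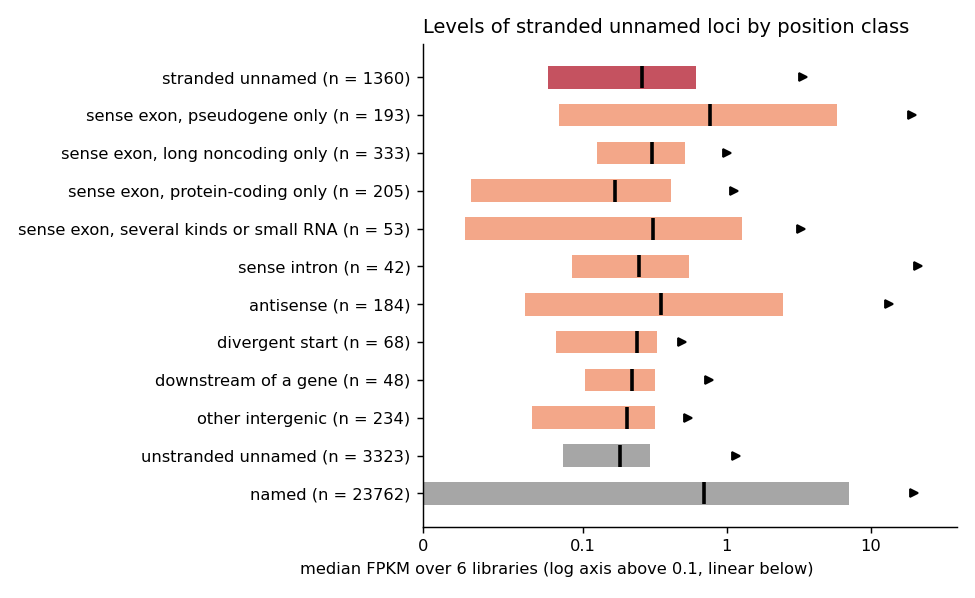
Level of the stranded unnamed loci (dark red), of their position classes (orange) and of the unstranded unnamed and named loci (grey). Boxes span the middle 50% of loci by median FPKM over 6 libraries, the black line is the median and the triangle the 90th percentile, on an axis that is logarithmic above 0.1; loci on pseudogene exons have a median of 0.762 FPKM, while loci with a divergent start have a 90th percentile of 0.490.

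High levels were concentrated on pseudogenes. Members on pseudogene exons had a median of 0.762 FPKM, members on long noncoding exons 0.302, members on protein-coding exons 0.168, and members away from any gene 0.201. Of the 78 members with a median at or above 10 FPKM, 55 touched a pseudogene on either strand, while 307 of all 1360 members did. Leaving out the mitochondrial genome, loci on or antisense to pseudogenes only held 54.7% to 65.9% of the members' summed FPKM in each library. Of the 57 members on or antisense to a gene with a pseudogene name that holds a parent gene, 17 had a ribosomal protein gene as parent. The 57 were picked by name: GENCODE types Ndufb1-ps as long noncoding and Nutf2-ps1 as protein-coding. Rpl17-ps5 (XLOC_019369, chr5:22612575-22613250), a copy of a ribosomal protein gene, had 80.2, 85.3 and 89.7 FPKM as its lowest, median and highest value. Rpl17 itself, named elsewhere in the table, had 2.39, 4.25 and 6.84 FPKM, so that the ranges of copy and parent did not overlap. The direction was the other way for most others: of the 45 among the 57 whose parent the table also lists, the parent had the higher median in 41. Gm4202 (XLOC_015777), a processed pseudogene with no parent in its name, had 48.2, 53.3 and 62.0 FPKM. Rpsa-ps10 (XLOC_016653) had 34.4, 36.7 and 40.2 FPKM, against 176, 180 and 216 FPKM for Rpsa, which encodes a ribosomal protein that also serves as a laminin receptor. Rab11b-ps2 (XLOC_012346, antisense to the copy) had 22.3, 25.2 and 26.1 FPKM, against 47.3, 53.4 and 58.5 FPKM for Rab11b, a small GTPase of recycling endosomes. Reads of near-identical copies can be split between them by the authors' aligner, so the level of any such pair is uncertain.

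A pseudogene could also appear on both strands at once. There were 26 pairs of members, 52 loci, with starts and ends within 50 bp of each other on opposite strands, and 15 of the pairs touched a pseudogene. In 54 of their 156 pair-and-library values the 2 strands carried the same FPKM within 1%, and in 69 one strand carried all of it while the other was listed at 0. In 28 both were above 0 and unequal, and in 5 both were 0. Rps6-ps4, a copy of the gene for a ribosomal protein of the small subunit, shows the pattern at chr2:75191017-75191852. Its minus-strand locus XLOC_014517 had 77.5, 76.9, 71.8, 72.5, 74.4 and 0 FPKM in the libraries headed hypo03, hypo13, hypo15, hypo25, hypo28 and hypo42. Its plus-strand locus XLOC_013515 had 0, 76.9, 71.8, 72.5, 74.4 and 78.0 FPKM in the same order. The 4 middle libraries were thus alike on both strands, and in the outer 2 the whole value stood on one strand. Tpt1-ps3, a copy of the gene for translationally controlled tumor protein, gave XLOC_021273 on the minus strand 0 to 60.8 FPKM and XLOC_020630 on the plus strand 0 to 60.8 FPKM, with medians of 55.6 and 54.7. Gm15459 (XLOC_019338, chr5:5781514-5783615) had 58.9, 112 and 128 FPKM on the minus strand, and XLOC_018612 had 0, 14.1 and 112 FPKM on the plus strand over the same bases. Which strand was at 0 varied by library, from 3 to 8 pairs for the plus strand and 3 to 8 for the minus strand. The strandedness of the libraries is not stated. Without it, reads from the 2 strands of one place cannot be told apart, and the strand of these loci is uncertain.

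**Figure D2:**
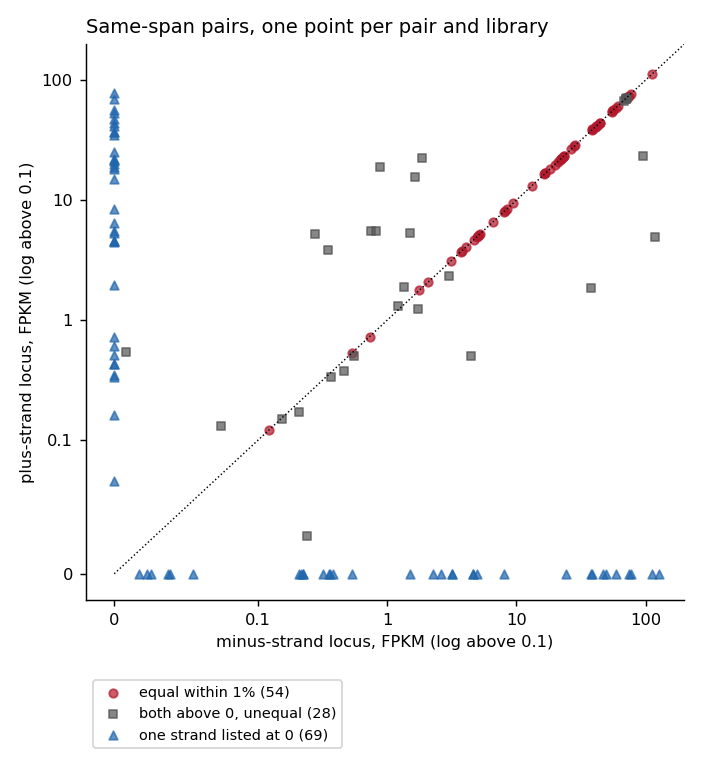
FPKM of the plus-strand locus (vertical axis) against the minus-strand locus (horizontal axis) for the 26 same-span pairs, 1 point per pair and library; axes are logarithmic above 0.1. The 54 red points lie on the diagonal, where the strands are equal within 1%, and the 69 blue triangles lie on an axis, where 1 strand is listed at 0.

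Most antisense members over a named protein-coding gene stood below that gene in level. Of the 184, 76 lay over pseudogenes only, with a median of 1.03 FPKM, and 41 lay over a protein-coding gene that the table also lists. Those 41 had a median of 0.246 FPKM, against 4.74 FPKM for the genes on the other strand, and the gene had the higher median at 28 of them. The highest, XLOC_020439 (chr6:54505884-54508815), lies antisense to Scrn1, which encodes secernin, a protein linked to exocytosis. It had 53.5, 59.9 and 61.4 FPKM, and Scrn1 had 54.4, 59.6 and 61.2 FPKM. The 2 values were within 10% of each other in all 6 libraries, which held for no other of the 41. At Ankrd13c, an ankyrin repeat gene, XLOC_016677 had 15.1, 18.5 and 21.6 FPKM, against 14.3, 15.4 and 16.3 FPKM for the gene. At Meis2 the levels stood apart. XLOC_013735 (chr2:116065079-116065857) over Meis2, a homeobox transcription factor of the developing forebrain, had 0.880, 1.13 and 1.35 FPKM, against 3.08, 4.74 and 6.51 FPKM for Meis2. XLOC_019865, antisense to Castor2, which encodes a subunit of an arginine sensor upstream of mTORC1, had 26.1, 30.2 and 32.1 FPKM. XLOC_003412, antisense to the processed pseudogene Gm12328, had 0.707, 47.4 and 53.8 FPKM. XLOC_026716, antisense to the processed pseudogene Gm5620, had 26.0, 62.3 and 88.8 FPKM, and XLOC_001064, antisense to Gm15427, had 30.7, 34.3 and 36.9 FPKM.

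**Figure D3:**
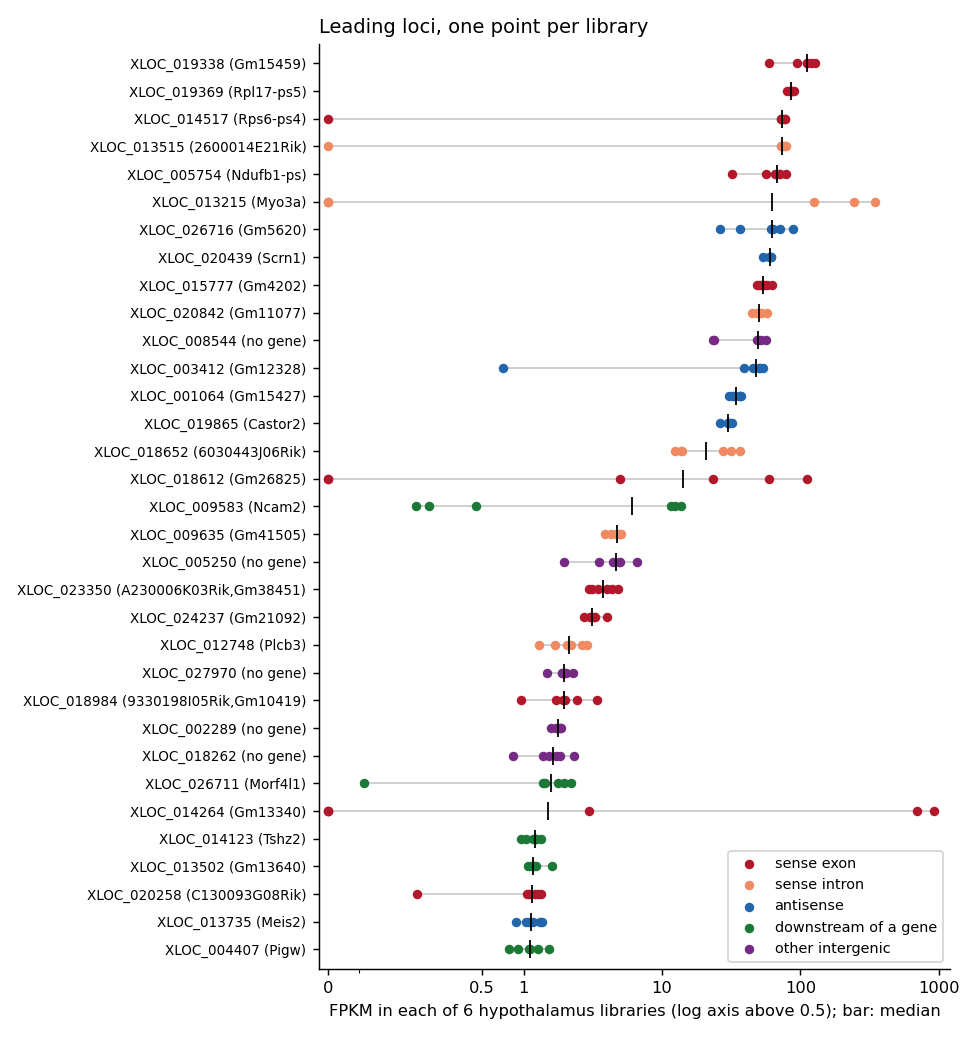
FPKM in each of 6 hypothalamus libraries (points; axis logarithmic above 0.5) for nuclear loci picked by the naming rule with a median at or above 1 FPKM, coloured by position class; the black bar is the median. Most loci keep their 6 points together, as XLOC_019369 between 80.2 and 89.7, while XLOC_013215 and XLOC_014264 reach from 0 to 343 and 924.

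Head-to-head starts were more frequent among members than among named loci. Of the 1360 members, 177 (13.01%, 11.3 to 14.9) started at or up to 1 kb before the start of an opposite-strand protein-coding gene, while 1627 of 23762 named loci did (6.85%, 6.53 to 7.18). On the far side, 1 bp to 1 kb inside the gene, the shares were 4.19% for members (3.25 to 5.39) and 4.95% for named loci (4.68 to 5.23). The difference between members and named loci was thus seen before the start of the partner gene, and the intervals inside it overlapped. Bins of 500 bases put 158 members in the first 500 bases before the partner's start and 19 in the next. Farther out, each bin up to 5000 bases before the start also held a larger share of members than of named loci. The shares were 1.10% against 0.471% at 1000 to 1500 bases, and 0.735% against 0.349% at 4500 to 5000. The difference from named loci was thus not particular to head-to-head starts. Among the 177, the median gap between the 2 starts was 102 bases, and 88 of the gaps were at most 100 bases. Among members on long noncoding exons 26.1% had such a start (21.7 to 31.1), against 1.95% on protein-coding exons (0.761 to 4.91) and 2.59% on pseudogene exons (1.11 to 5.92).

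**Figure D4:**
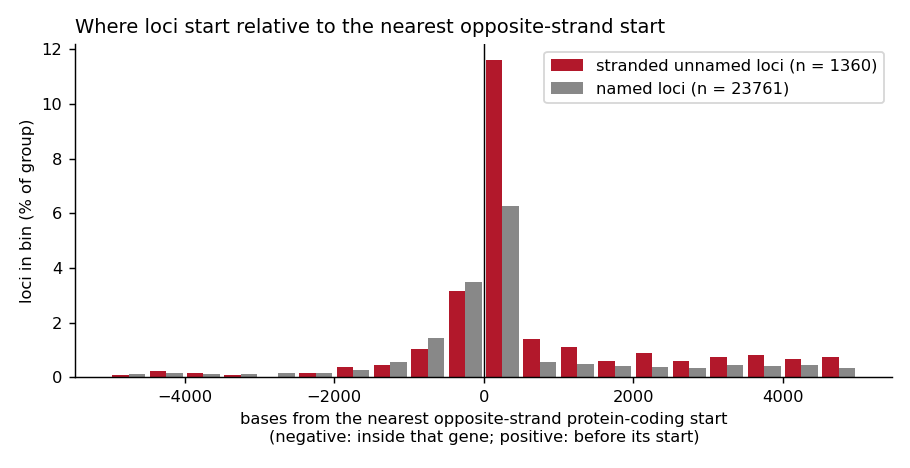
Share of loci (vertical axis, % of group) by the distance in bases from their own start to the nearest start of an opposite-strand protein-coding gene (horizontal axis, bins of 500 bases, positive before that start), for the stranded unnamed loci (red) and named loci (grey). The first bin before the start holds 11.6% of the stranded unnamed loci and 6.28% of named loci. Each further bin before the start, out to 5000 bases, also holds a larger share of the stranded unnamed loci.

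The partner promoters were rich in CpG dinucleotides. By RefSeq starts, 164 members began head to head with a protein-coding gene. Over the 163 windows of these genes, the median was 26 CpG and 66.0% G+C per 300 bases, against 13 CpG and 56.3% over all 21262 protein-coding windows. The 21262 were not restricted to genes with RNA in these libraries, so the part of gene activity in these differences was not tested. The letters GGGCGG, a binding motif of Sp1-type factors, were on either strand of 120 windows (73.6%), against 46.2% of all protein-coding windows. The letters TATAAA, the TATA box, were in 9 windows (5.52%), against 12.6%. CCAAT was in 38.7%, against 38.2%. CCGGAAG, an ETS factor motif, was in 16.6%, against 11.6%, and TGCGCA, part of the NRF1 motif, in 17.8%, against 9.74%. Windows of the 136 RefSeq genes of any type that start within 100 bp of a member on its own strand held fewer CpG than the partner windows. Their median was 10 CpG and 56.2% G+C, and GGGCGG stood in 42.6% of them. Over all 32851 RefSeq windows of any gene type the values were lower, at 7 CpG, 52.7% and 35.7%. Both GGGCGG and CCGGAAG are G+C-rich, so their shares move with the base composition of a window. Of the windows printed above, those of Sap30l, Pik3c2a, Scaf11 and Fezf1 hold GGGCGG and none holds TATAAA.

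Levels of the head-to-head loci were well below those of their partners. The 177 had a median of 0.296 FPKM, and their listed partners, of which there were 170, a median of 7.11 FPKM, with the partner higher in 160. Across these 170 pairs the Spearman correlation of the 2 medians was -0.06, a description over loci of the same libraries. At or above 0.1 FPKM in all 6 libraries were 85 of the 177 (48.0%), against 450 of the other 1183 members (38.0%) and 48.9% of all loci. The highest of the 177 was Ndufb1-ps (XLOC_005754), named after a subunit of respiratory complex I, with 32.0, 67.9 and 78.1 FPKM, against 5.78, 6.18 and 7.16 FPKM for Cpsf2, which encodes a subunit of the complex that cleaves messenger RNAs before polyadenylation. The lowest Ndufb1-ps value, in hypo15, was still above every Cpsf2 value. The locus 2010001A14Rik (XLOC_004121) had 2.41, 3.09 and 3.59 FPKM, against 37.9, 41.8 and 47.0 FPKM for Sap30l, whose product associates with the Sin3 histone deacetylase complex. AV356131 (XLOC_022535) had 1.22, 1.35 and 1.57 FPKM, against 3.12, 4.25 and 4.62 FPKM for Pik3c2a, a class II phosphoinositide 3-kinase. XLOC_006191 (5033430I15Rik) had 1.34, 2.38 and 4.08 FPKM, against 3.85, 4.45 and 6.22 FPKM for Atxn1, a polyglutamine protein gene with a role in transcriptional repression.

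C130093G08Rik (XLOC_020258, chr6:23248268-23254471) starts 4 bases from the RefSeq start of Fezf1, a zinc finger transcription factor needed for neurons of the ventromedial hypothalamus. In GENCODE its distance to Fezf1 is 0 bases, on the opposite strand, and it is not among the 177. C130093G08Rik had 0.289, 1.15 and 1.32 FPKM, with 5 libraries at or above 1.06 and hypo25 lowest. Fezf1 itself was listed at 0 in all 6 libraries. In the loci that touch no annotated gene and start head to head, levels were lower. XLOC_009562 beside Chmp2b, an ESCRT-III subunit gene, had 0.866, 0.949 and 1.29 FPKM, against 19.6, 20.1 and 22.0 for Chmp2b. XLOC_008561 beside Scaf11, a splicing factor gene, had 0.493, 0.657 and 0.730 FPKM, against 6.07, 7.02 and 7.96 for Scaf11. XLOC_005442 beside Cdca4 had 0.453, 0.562 and 0.744 FPKM, against 0.793, 1.45 and 1.83 for Cdca4, the closest of these pairs in level. XLOC_018227 beside Capzb, which encodes a subunit of the actin capping protein, had 0.240, 0.553 and 0.777 FPKM, against 71.0, 73.7 and 79.0 for Capzb. XLOC_009662 beside Glis2, a zinc finger transcription factor gene, had 0.299, 0.4998 and 0.863 FPKM, against 2.60, 3.38 and 3.57 for Glis2.

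Some other long noncoding members were above 0 in every library, although 142 of the 333 on long noncoding exons only were listed at 0 in at least 1. 3300002P13Rik (XLOC_022772) had 4.17, 6.03 and 6.59 FPKM, A230006K03Rik with Gm38451 (XLOC_023350, chr7:61009886-61311702, among the 3 longest spans) had 2.98, 3.72 and 4.78 FPKM in 10 models, and Gm40841 (XLOC_006589) had 1.32, 1.48 and 1.90 FPKM. Of the 3 loci with most models, XLOC_024237 (Gm21092, an unprocessed pseudogene) had 2.71, 3.14 and 3.98 FPKM in 12 models. The locus with 19 models, XLOC_018984 (9330198I05Rik and Gm10419), had 0.962, 1.94 and 3.40 FPKM. Snhg14, the long host RNA of the imprinted Snrpn to Ube3a region that runs antisense to Ube3a in neurons, was touched by 4 members, chosen here after their values were seen. XLOC_023330 had 0, 1.92 and 3.43 FPKM and XLOC_023339 had 0, 1.10 and 2.54 FPKM, both listed at 0 in hypo03. XLOC_023329, which overlaps XLOC_023330 on the same strand, had 1.07 FPKM in hypo03 and 0 in the other 5, so the span of that pair had a value in every library. XLOC_023345, in an intron, had 0.390 FPKM in hypo15 and 0 elsewhere. The 2 longest loci of all, XLOC_022329 (chr7:94706217-95487738) and XLOC_018259 (chr4:142706788-143074682), were above 0 in 1 library each, at 0.335 and 0.551 FPKM.

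Few listed genes of hypothalamic or synaptic function had a member beside them, at shares near that of all protein-coding genes. Within 10 kb lay members for none of 20 hypothalamic neuropeptide genes, 3 of 35 hypothalamic transcription factor genes, 1 of 35 imprinted genes, 2 of 28 synaptic genes and 1 of 16 myelin genes, against 1056 of 21992 protein-coding genes (4.80%). The transcription factor genes were Fezf1 and Meis2, described above, with a further locus near Fezf1, XLOC_020925, at 0, 0.016 and 0.223 FPKM, and Nkx2-2, a homeobox gene of the ventral neural tube, with XLOC_014988 at 0.068, 0.087 and 0.361 FPKM starting 484 bp past its end. The imprinted gene was Nnat, which encodes neuronatin, with XLOC_015082 (Gm14286) at 0.294, 0.362 and 0.608 FPKM on the opposite strand. The synaptic genes were Shank3, a postsynaptic scaffold gene, with XLOC_008541 at 0.139, 0.348 and 0.485 FPKM ending 189 bp before its start, and Homer1, with XLOC_006368 at 0.090, 0.112 and 1.89 FPKM. Ugt8a, which makes the galactolipids of myelin, had XLOC_016576 at 0.073, 0.354 and 0.416 FPKM.

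A median at or above 10 FPKM was reached by 6 of 42 members in sense introns, 2 of 234 away from genes and none of 48 past a gene's end, against 78 of 1360 members in all. XLOC_009583, past the neural adhesion gene Ncam2, had 0.285, 0.329 and 0.481 FPKM in 3 libraries and 11.6, 12.4 and 13.7 FPKM in the other 3, with nothing between. XLOC_014123, past Tshz2, a zinc finger gene, had 0.953, 1.20 and 1.33 FPKM. XLOC_026711, past Morf4l1, a chromatin protein gene, had 0.117, 1.59 and 2.19 FPKM. XLOC_013502 past Gm13640 had 1.08, 1.17 and 1.60 FPKM, and XLOC_004407 past Pigw, a gene of GPI anchor synthesis, had 0.780, 1.10 and 1.53 FPKM. Among the intergenic loci XLOC_008544 (chr15:89765764-89768911) was by far the highest, with 23.3, 49.0 and 56.0 FPKM: hypo13 and hypo15 had 23.3 and 23.7, and the other 4 had 48.3 to 56.0. XLOC_005250 had 1.97, 4.64 and 6.58 FPKM, XLOC_027970 1.47, 1.94 and 2.26, XLOC_002289 1.58, 1.77 and 1.87, and XLOC_018262 0.835, 1.62 and 2.31 FPKM. In introns, XLOC_020842 (Gm11077) had 44.9, 50.5 and 57.7 FPKM, XLOC_018652 (6030443J06Rik) 12.3, 20.7 and 36.5, XLOC_009635 (Gm41505) 3.87, 4.76 and 5.08, and XLOC_012748 (Plcb3, a phospholipase C gene) 1.28, 2.12 and 2.88 FPKM.

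Differences between libraries were larger for members than for named loci with a small pseudocount, and the size of the gap depended on the pseudocount. Among loci with a median at or above 0.1 FPKM, the median log2 ratio of the highest to the lowest library, on the log2(FPKM + 0.1) scale, was 1.37 for 987 members, 1.34 for 2403 unstranded unnamed loci and 0.54 for 13622 named loci. At or above 1 FPKM it was 0.89 for 243 members, 0.43 for 363 unstranded unnamed loci and 0.46 for 11340 named loci, with upper quartiles of 4.20 for members and 0.79 for named loci. Without the same-span pairs it was 0.73 for 208 members, and without members on pseudogenes as well 0.80 for 92. With a pseudocount of 1 FPKM on all loci at or above 0.1 FPKM, which hides differences among low loci, members had 0.42 and named loci 0.41. The 5 largest ratios included both strands of Rps6-ps4 and the plus strand at Gm15459, described above, and a pair of neighbours on chromosome 2. XLOC_013215 (chr2:22587528-22588354), in an intron of Myo3a, a class III myosin gene, had 242, 0, 0, 343, 0 and 125 FPKM in the order of libraries given above. XLOC_014264 (chr2:22589166-22589440), on the pseudogene Gm13340 and on the opposite strand, had 0, 690, 0, 924, 0 and 2.97 FPKM. Both were at 0 in hypo15 and hypo28 and highest in hypo25.

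The mitochondrial genome was the single largest source. The table holds 2 loci there, and neither is named. XLOC_027110 (chrM:1-16297, minus strand, 23 models) covers nearly all of it, including mt-Nd6, the only protein-coding gene of its strand. It had 4831, 4452, 3224, 2898, 4101 and 1725 FPKM in the order of libraries above, with hypo42 lowest and hypo03 highest. XLOC_027109 (chrM:5337-16297, plus strand, 3 models), over mt-Co1 to mt-Cytb, had 0.011 to 6.58 FPKM with a median of 0.439. The strandedness of the libraries is not stated, so the strand of both loci is uncertain. The value of XLOC_027110 cannot be assigned to mt-Nd6 or to the minus strand. Members took 2.11% to 3.50% of the summed FPKM of a library, and 1.27% to 1.73% without these 2 loci.

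About 50% of the members had a counterpart in the other tissues. An unnamed locus of adipose or liver shared at least 1 base with 677 members (49.8%, 47.1 to 52.4), with 601 in adipose and 430 in liver. The share was 84.5% for members on pseudogene exons (78.7 to 88.9), 65.2% for antisense members (58.1 to 71.7), 42.3% on long noncoding exons (37.2 to 47.7), 39.7% for divergent starts (28.9 to 51.6) and 23.5% away from genes (18.5 to 29.3). Asking for the same strand lowered the overall share to 28.5% (388 members). Strand was compared by kind of locus. Of 65 members on protein-coding exons that an unnamed adipose locus covered by 50% or more, 60 had it on the same strand only and 1 on the opposite strand only. Of 176 members touching a pseudogene and covered in this way, 65 had the same strand only, 15 the opposite only, 17 both and 79 no strand. In liver the numbers for pseudogenes were 76, 18, 12 and 69 of 175. On protein-coding exons, liver had the same strand only for 22 of 29 and the opposite only for 2. On long noncoding exons the same strand only was found for 44 of 65 in adipose and 29 of 43 in liver.

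**Figure D5:**
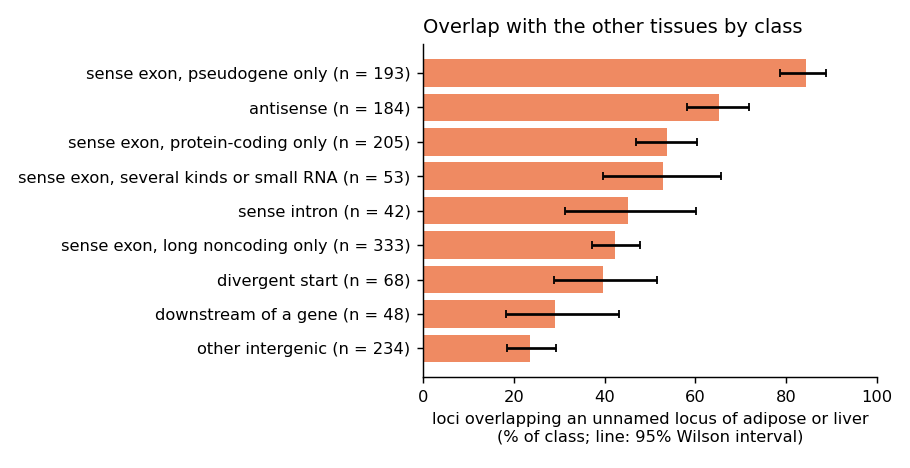
Share of the stranded unnamed loci of hypothalamus (horizontal axis, % of class) that overlap an unnamed locus of adipose or liver by at least 1 base, by position class, with 95% Wilson intervals. Loci on pseudogene exons overlap in 84.5% of cases and loci away from genes in 23.5%.

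For 137 members, adipose and liver both had a same-strand unnamed locus, and levels can be set side by side, although each tissue was assembled separately. Such a locus needed to share just 1 base with the member, so the levels may belong to loci of different extent. The median of the 137 was 0.818 FPKM in hypothalamus, 0.762 in adipose and 0.542 in liver. The median was highest in hypothalamus for 62, in adipose for 36 and in liver for 35 of them, and the rest were in none of these groups. The 137 were defined from the hypothalamus assembly, and no count of the highest tissue was made for named loci. Neither named loci nor the reverse orders were counted for full separation. Both the counts above and the next one thus have no background share and are no measure of enrichment in hypothalamus. In 24 of the 137 all 6 hypothalamus values stood above all adipose and liver values. The intergenic locus XLOC_008544 led these with 23.3 to 56.0 FPKM in hypothalamus, against 4.09 to 6.62 in adipose and 1.98 to 4.53 in liver. Both pieces of Ppp2r3d, a protein phosphatase subunit gene, were among them, XLOC_026916 with 9.20 to 15.5 FPKM in hypothalamus, against 3.01 to 4.90 in adipose and 2.07 to 4.31 in liver. The head-to-head locus 2010001A14Rik had 2.41 to 3.59 FPKM in hypothalamus, against 0.405 to 1.37 in adipose and 0.160 to 0.823 in liver. XLOC_006191 beside Atxn1 had 1.34 to 4.08 FPKM in hypothalamus, against 0 to 0.755 in adipose and 0.179 to 0.566 in liver. By contrast Ndufb1-ps had a median of 67.9 FPKM in hypothalamus, 60.7 in adipose and 74.8 in liver. Of all 1360 members, just 428 (31.5%) met a locus, named or not, on their strand in either tissue. Of the 397 members with a median at or above 0.5 FPKM, 215 met no such locus, and 195 of these were outside the same-span pairs. Rpl17-ps5, the Scrn1 antisense locus and Gm10076 (XLOC_007575, 46.8 to 55.5 FPKM) were among the highest of the 195. Rpl17-ps5 and Gm10076 did overlap an unnamed locus of adipose and one of liver, though not on their own strand, while the Scrn1 antisense locus overlapped no unnamed locus of either. Given the uncertain strand, a lack of a same-strand locus is no measure of absence.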

How the data were processed

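Poly-A RNA from 18 samples was sequenced and, per the submitters' processing notes, processed with HISAT 0.1.6 and StringTie 1.0.4 on mm10. The deposited hypothalamus, adipose and liver tables give FPKM per transcript model, computed by the authors, in 6 columns per tissue; the strandedness of the libraries and the annotation behind the names are not given in the sources used here. Column headings match a tissue and no sample, so columns were used as libraries of a tissue. The 12 columns of the adipose and liver gene tables were not used. Nothing in the labels says how litters map to samples.

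FPKM were summed over the models of a locus (missing cells would stay missing; none fell in a member). Named models had a span equal to a GENCODE M21 transcript in 14.9% of cases counted from 1 and 0.795% counted from 0, so positions were read as counted from 1. Position classes, in order, were sense exon, sense intron, antisense, divergent start, downstream of a gene and other intergenic. The loci named were the 5 highest medians per class among loci at or above 0.1 FPKM in all 6 libraries, the 5 highest medians, the 5 largest highest-to-lowest ratios with a median at or above 1 FPKM, the 3 with most models, the 3 longest, and loci within 10 kb of a listed gene; others were chosen after their values were seen. One locus the rule picks is not reported here. The members, lists and rules were chosen with earlier results of these data known. Groups were not tested against each other; single libraries were checked for gaps with Dixon's criterion. Promoter windows are from RefSeq (GRCm38.p6); 163 partner windows were matched by position. Shares carry 95% Wilson intervals over loci, which are not independent. The classes and the motif search were tested on simulated data. Python 3.11.15, pandas 2.3.3, NumPy 2.4.6, SciPy 1.17.1 and Matplotlib 3.10.9 were used.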

Additional observations from a re-analysis of the deposited data

Results flagged for a closer look

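Gaps between a library and its nearest neighbour, as a part of the range, were set against Dixon's 95% critical value. Of 48 loci picked by the naming rule, 9 had 1 library beyond it, as did 300 of all 1360 members (22.1%). Chance gives about 1 in 20 for normally distributed values, which FPKM with many values at 0 are not. The 129 members above 0 in just 1 library have such a gap by construction. No excess over chance can be read from these counts. Low libraries came first in number. Rps6-ps4 was listed at 0 in 1 library on each strand, XLOC_013515 at 0 in hypo03 and XLOC_014517 at 0 in hypo42, with 71.8 FPKM next in both. XLOC_003412, antisense to the processed pseudogene Gm12328, had 0.707 FPKM in hypo15 and 39.0 next. C130093G08Rik (XLOC_020258) had 0.289 FPKM in hypo25 and 1.06 next. The antisense loci XLOC_020439 at Scrn1 and XLOC_019865 at Castor2 were also lowest in hypo25, at 53.5 FPKM with 58.9 next and at 26.1 FPKM with 30.1 next. High libraries were found at XLOC_013502, with 1.60 FPKM in hypo25 and 1.22 next, at XLOC_018259, with 0.551 FPKM in hypo28 and 0 in the others, and at XLOC_022329, with 0.335 FPKM in hypo25 and 0 in the others.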

How the results depend on the processing

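The number of members (1360) stayed at 1360 with every model on 1 strand and was 1358 on chromosomes 1 to 19, X and Y. The 535 members at or above 0.1 FPKM in all 6 libraries became 225 at 0.5 FPKM and 150 at 1 FPKM; they were 531 with the highest model only and 562 to 575 with 1 library left out. The median level (0.257 FPKM) stayed between 0.246 and 0.265 when the highest model only or loci at or above 0.1 FPKM in 1 library were used, with 0.256 to 0.263 when 1 library was left out. With the authors' gene table, an alternative chosen after seeing the data, the count was 522 and the median 0.245 FPKM. The median log2 ratio of highest to lowest library (1.37) was 0.42 with a pseudocount of 1 FPKM, 1.81 with 0.01, 1.80 with no filter on low values and 1.32 without the same-span pairs, also chosen after seeing the data; without those pairs the count was 527 and the median 0.251. With 50% of the span covered, the classes in the order of the report's rule held 16.8%, 32.6%, 9.78%, 6.76%, 5.22% and 28.9%. With protein-coding genes only, sense exon was 16.3%, antisense 10.0%, divergent start 11.9% and other intergenic 55.2%. A divergent window of 5 kb gave 8.01% divergent and 14.9% other intergenic, and a downstream window of 10 kb gave 5.22% downstream. The overlap with adipose or liver (49.8%) was 28.5% on the same strand and 34.8% for 50% of the span. The causes were not tested where the construction does not show them. The planned share of loci with a polyadenylation signal was not run, since no genome sequence was used here. No paired analysis was possible because the columns carry no replicate numbers of the labels and no groups were compared. Depth is unknown, so values near 0 cannot be given a counting interval.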
